A study of Mus musculus with 12 samples.

Results

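The 7 genes described here, Ptf1a, Rbpjl, Bhlha15, Gp2, Sycn, Zg16 and Cuzd1, encode transcription factors and secretory granule proteins of the pancreatic acinar cell. They were taken by name, with every probe that carries the symbol, from an expression array of mouse islets. The array holds 45281 probes, of which 11 belong to these genes, and 8875 genes passed a detection filter and were tested. All 7 genes were among those tested, and 9 of their 11 probes passed the filter.

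Islets were isolated, after collagenase perfusion of the pancreas, from male C57Bl/6Hsd mice aged 10 months. The mice lacked the small heterodimer partner (SHP, encoded by Nr0b2, a nuclear receptor without a DNA-binding domain that represses other nuclear receptors) or were wild type. Each genotype ate either a western diet for 6 months, begun at 4 months of age, or chow. The 4 groups of 3 arrays were therefore SHPKO on western diet, WT on western diet, SHPKO on chow and WT on chow. RNA was pooled from 5 to 9 mice per group and the arrays were run in triplicate. Whether the triplicate arrays share a pool is not stated. They were treated as technical repeats of 1 pool, so each SD and p-value measures the spread between arrays and not between mice. The tissue that each label names is islets, and islets isolated with collagenase can carry acinar cells along.

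Acinar cells make the digestive enzymes, store them in zymogen granules and release them into the duct. In mice, Ptf1a, a basic helix-loop-helix factor, joins an E protein and either Rbpj or, in mature acini, Rbpjl to form the PTF1 complex. This complex binds an E-box next to a TC box in front of enzyme and granule genes. Bhlha15, also called Mist1, is a separate basic helix-loop-helix factor that scales up the secretory machinery of acinar and other serous cells and is also made by plasma cells. Gp2 is the abundant glycolipid-anchored glycoprotein of the granule membrane, Sycn (syncollin) lines the inner face of that membrane, Zg16 is a lectin of the granule that is also made by intestinal goblet cells, and Cuzd1 is a granule membrane protein with CUB and zona pellucida domains.

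Median raw signal lay between 80.0 and 88.0 and the highest between 26108 and 33260 on the 12 arrays, and 13821 to 16101 probes per array were detected (detection p below 0.01). Arrays of the same group correlated at 0.984 to 0.995 in log2 level, and arrays of different groups at 0.957 to 0.987. The probe of the deleted gene, Nr0b2, was not detected on any array. Its raw signal was 74.5 to 77.0 in SHPKO and 70.6 to 80.1 in WT on western diet, against 75.9 to 79.1 in SHPKO and 74.4 to 80.4 in WT on chow. The arrays therefore give no check of the genotype labels. Of 14 beta cell markers on the array, 13 were detected and tested, and 0 of 13 passed the test between genotypes on either diet by limma (1 on western diet and 2 on chow at an unadjusted p below 0.05).

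On both diets the same 6 of the 7 genes were lower in SHPKO than in WT islets, and Bhlha15 was the exception. The 4 granule genes fell by 10.7- to 16.5-fold on western diet and by 15.4- to 20.5-fold on chow. Ptf1a and Rbpjl were detected in WT islets on both diets and on none of the 6 SHPKO arrays. They passed the detection filter through the WT groups alone, which favours a lower SHPKO level. Their p-values and their place in the count are therefore not support for a fall. A gene passed the test at a Benjamini-Hochberg adjusted p below 0.05, over all genes tested, together with a difference of at least 1.5-fold. Over all genes, 1.22% passed and were lower in SHPKO on western diet and 1.21% on chow. The 4 granule genes, detected on all 12 arrays, also showed no overlap between the genotypes. Every SHPKO array was below every WT array, which held for 10.7% of all genes on western diet and for 7.35% on chow. Ptf1a and Rbpjl did not overlap either, but the detection filter favours this, so it is not support for their fall. In RNA from whole islet preparations, fewer acinar cells and less RNA per acinar cell cannot be told apart.

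**Figure D1:**
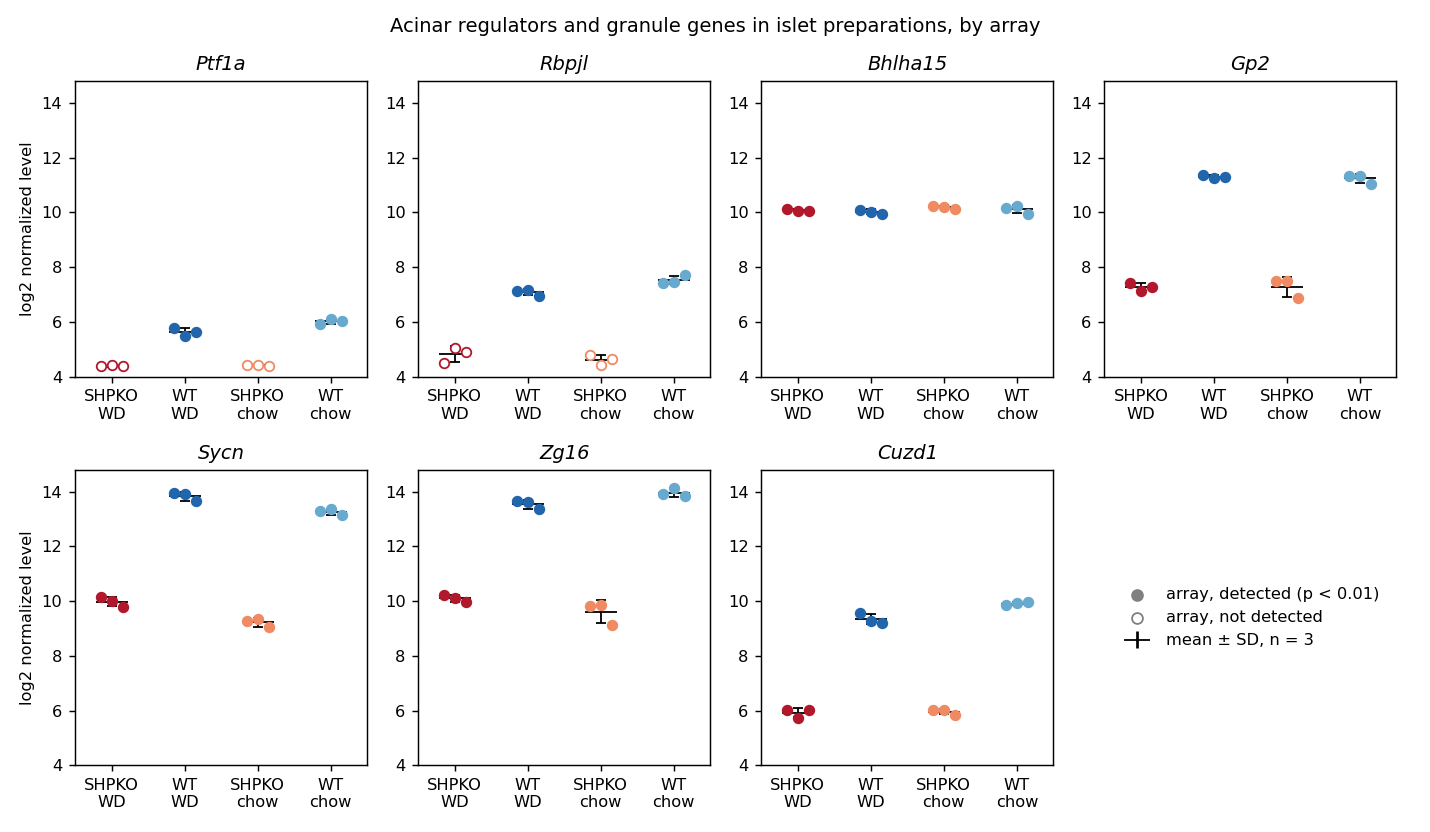
Log2 normalized level of each of the 7 genes on the 12 arrays (vertical axis), with SHPKO and WT islets on western diet (WD) at the left of each panel and on chow at the right. Filled points are arrays with detection and open points arrays without, and bars are the mean ± SD of 3 arrays. In 6 panels all SHPKO points lie below all WT points on the same diet, and in the Bhlha15 panel all 12 points lie between 9.95 and 10.23.

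Among the regulators, Ptf1a was measured by probe ILMN_1212730. On western diet its log2 level was 4.38, 4.44 and 4.38 in SHPKO islets, against 5.79, 5.49 and 5.64 in WT islets. On chow it was 4.45, 4.42 and 4.40 in SHPKO islets, against 5.93, 6.11 and 6.04 in WT islets. All 6 WT arrays were above all 6 SHPKO arrays, and WT islets on western diet were below WT islets on chow on every array. Raw signal was 74.3 to 79.4 in SHPKO and 106 to 116 in WT islets on western diet, and 78.2 to 80.8 in SHPKO and 116 to 123 in WT islets on chow. The SHPKO signal was at the level of the negative controls, with detection p of 0.504 to 0.652 on western diet and 0.456 to 0.580 on chow. The fitted difference was -1.24 ± 0.09 (SE) on western diet (limma, adjusted p = 1.12e-06) and -1.61 ± 0.09 on chow (adjusted p = 7.79e-08). Ptf1a entered the test only through its detection in WT islets, and the spread of its SHPKO values is that of background signal. These p-values are therefore not support for a fall.

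Since the SHPKO side has only an upper bound, Ptf1a was at least 1.29-fold lower on western diet and at least 1.75-fold lower on chow. These bounds set the WT mean against the dimmest signal detected on the SHPKO arrays. The size of the fitted difference depended on the background handling. With no background correction it was -0.57 on western diet and -0.73 on chow, and the western diet value was then below the 1.5-fold minimum. With an offset of 50 in place of 16 it was -0.61 and -0.84. The second Ptf1a probe, ILMN_2917074, was not detected on any array and gave raw signals of 67.4 to 89.9.

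Rbpjl, the acinar-restricted partner of Ptf1a in the complex, followed the same order on probe ILMN_2733957. Log2 levels on western diet were 4.49, 5.05 and 4.91 in SHPKO islets, against 7.12, 7.17 and 6.96 in WT islets. On chow the values were 4.80, 4.41 and 4.64 in SHPKO islets, against 7.43, 7.48 and 7.71 in WT islets. The genotypes did not overlap, and the 6 SHPKO arrays overlapped between diets. Rbpjl differed by -2.27 ± 0.15 on western diet (adjusted p = 2.97e-07) and by -2.93 ± 0.15 on chow (adjusted p = 1.91e-08), which corresponds to at least 3.51-fold and at least 5.00-fold lower. Rbpjl too entered the test only through its detection in WT islets, so the same limit holds for its p-values. Without background correction the differences were -1.15 and -1.57. Probe ILMN_2860717 of Rbpjl was not detected on any array, with raw signals of 67.1 to 83.2.

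Bhlha15 differed from the other 6 genes. Its brightest probe, ILMN_2651389, gave log2 levels of 10.11, 10.07 and 10.07 in SHPKO islets and 10.11, 10.03 and 9.95 in WT islets on western diet. On chow the levels were 10.23, 10.19 and 10.14 in SHPKO islets and 10.16, 10.23 and 9.96 in WT islets. The genotypes overlapped on both diets. The difference was 0.05 ± 0.09 on western diet (95% interval -0.14 to 0.25, adjusted p = 0.849) and 0.07 ± 0.09 on chow (interval -0.12 to 0.26, adjusted p = 0.802). These intervals exclude a fall of the size seen in the granule genes.

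All 3 Bhlha15 probes were detected on all 12 arrays. The other 2 gave differences of 0.08 and 0.06 on western diet and of -0.06 and -0.07 on chow, and none of the 3 passed the test. Plasma cells are a known second source of this transcript, and some leukocyte markers moved with genotype on western diet. Of 9 tested leukocyte markers, 5 were higher in SHPKO islets on western diet and 0 changed on chow by limma (0 at an unadjusted p below 0.05). Over all 8875 genes, 281 passed in either direction on western diet and 187 on chow. Cd3e, Adgre1, Csf1r and Lyz2 did not pass on western diet, and no marker particular to plasma cells was listed. The summed linear level of the leukocyte list was 3370 to 3485 in SHPKO and 1801 to 2077 in WT islets on western diet. On chow it was 1400 to 1535 in SHPKO and 1314 to 1388 in WT islets. Most of this sum was Cd74, so it does not measure leukocyte number. The mean log2 level of Cd74 was 11.26 in SHPKO and 10.67 in WT islets on western diet, and 10.27 and 10.09 on chow. The pan-leukocyte marker Ptprc, Ms4a1 and Itgam were not detected on any array. The part of leukocytes in the Bhlha15 level was not tested.

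**Figure D2:**
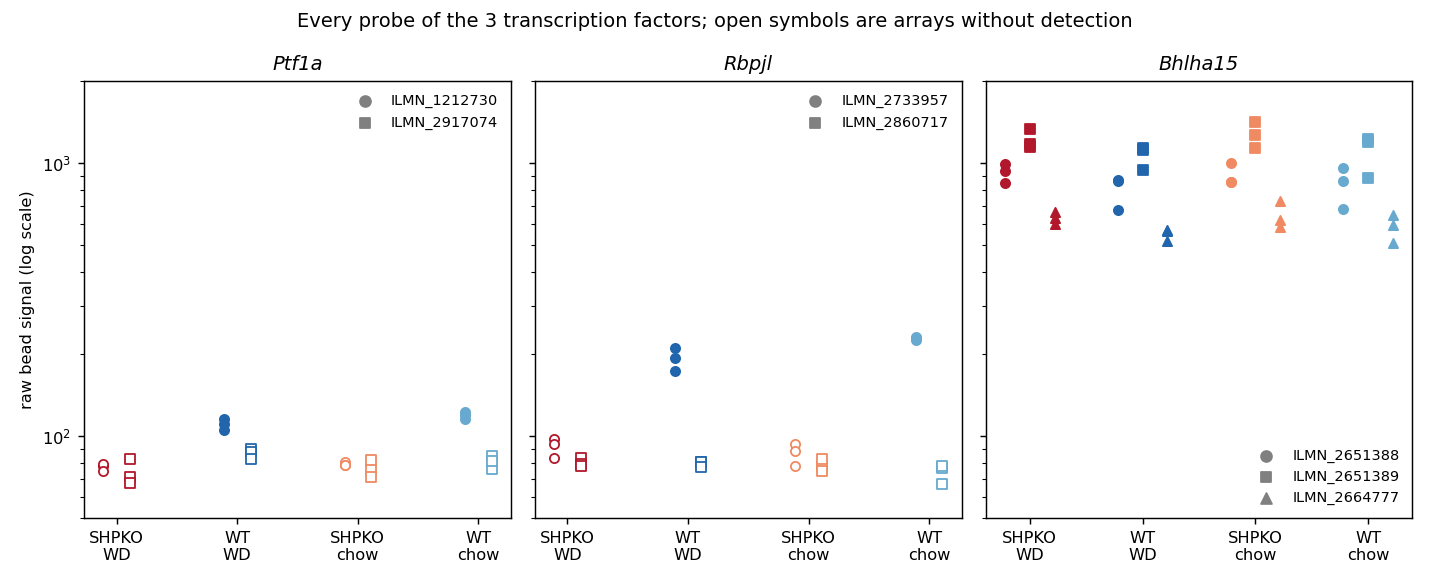
Raw bead signal on a logarithmic vertical axis for every probe of the 3 transcription factors, by genotype and diet, with open symbols for arrays without detection. The detected probes of Ptf1a and Rbpjl are open in both SHPKO groups, their second probes are open in all 4 groups, and the 3 Bhlha15 probes are filled in all 4 groups with raw signals of 510 to 1411.

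Other acinar transcription factors and partners of PTF1 did not pass the test. Of 16 listed, 14 were on the array and 8 were tested, and 0 of 8 passed on either diet by limma (2 at an unadjusted p below 0.05 on western diet and 0 on chow). Xbp1, which drives secretory expansion and acts before Bhlha15 in acinar cells, had levels of 12.71 ± 0.11 in SHPKO and 12.56 ± 0.17 in WT islets on western diet (SD, n = 3 each), a difference of 0.16 ± 0.12. Gata6, a zinc-finger factor of pancreas development, differed by -0.22 ± 0.12 on western diet and 0.21 ± 0.12 on chow. Levels in whole islet preparations do not separate acinar cells from other cells, so these values do not give the acinar level. The PTF1 partner Rbpj, the E protein gene Tcf3, Gata4 and Myc were not detected on any array.

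The promoters of the regulators and granule genes were searched for the letters of the PTF1 site, since 5 of the 6 genes that fell have a promoter in the RefSeq table (GRCm38.p6). Each window runs from 250 bases before to 50 bases after a transcript start. The motifs searched were the E-box, CANNTG, which reads the same on both strands, and the TC box, TTCCCA, or TGGGAA on the other strand. The E-box and the TC box do not overlap each other in these windows. Rbpjl is shown as the regulator with both motifs, Gp2 as the granule gene with both, Sycn as a granule gene with a TC box alone, and Bhlha15 as the gene that did not fall. Capitals mark each match.
Rbpjl, chr2:164402944-164403243, plus strand: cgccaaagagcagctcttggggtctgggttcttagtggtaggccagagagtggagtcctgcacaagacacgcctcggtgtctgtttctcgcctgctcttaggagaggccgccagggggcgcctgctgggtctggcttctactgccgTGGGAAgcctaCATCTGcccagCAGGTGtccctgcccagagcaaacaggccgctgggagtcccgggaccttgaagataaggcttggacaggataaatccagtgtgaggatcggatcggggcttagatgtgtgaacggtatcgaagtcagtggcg
Gp2, chr7:119459223-119459522, minus strand: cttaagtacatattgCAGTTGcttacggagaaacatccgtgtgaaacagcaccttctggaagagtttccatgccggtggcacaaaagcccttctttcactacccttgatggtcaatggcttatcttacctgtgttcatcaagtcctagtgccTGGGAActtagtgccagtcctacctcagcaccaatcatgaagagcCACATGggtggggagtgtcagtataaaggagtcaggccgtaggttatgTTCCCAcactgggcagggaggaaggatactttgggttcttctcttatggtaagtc
Sycn, chr7:28540635-28540934, plus strand: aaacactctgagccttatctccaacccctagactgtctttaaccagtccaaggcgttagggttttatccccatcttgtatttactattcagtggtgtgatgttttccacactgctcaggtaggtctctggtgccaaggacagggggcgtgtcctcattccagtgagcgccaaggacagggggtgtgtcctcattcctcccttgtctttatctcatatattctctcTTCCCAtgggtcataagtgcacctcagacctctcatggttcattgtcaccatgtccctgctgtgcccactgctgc
Bhlha15, chr5:144190036-144190335, plus strand: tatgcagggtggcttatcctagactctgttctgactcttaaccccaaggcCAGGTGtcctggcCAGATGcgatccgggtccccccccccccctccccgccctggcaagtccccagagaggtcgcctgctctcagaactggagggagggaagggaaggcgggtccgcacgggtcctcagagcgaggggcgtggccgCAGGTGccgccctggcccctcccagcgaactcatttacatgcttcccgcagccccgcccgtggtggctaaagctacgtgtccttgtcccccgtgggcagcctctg

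Rbpjl held 1 TC box, at -104 to -99 relative to the transcript start, followed by E-boxes at -93 to -88 and -82 to -77. Gp2 held TC boxes at -98 to -93 and -5 to 1 and E-boxes at -235 to -230 and -53 to -48. Sycn held a TC box at -25 to -20 and no E-box, and Bhlha15 held 3 E-boxes and no TC box. In the other windows Ptf1a (chr2:19445413-19445712, plus strand) had 1 TC box and no E-box, and Cuzd1 (chr7:131322243-131322542, minus strand) had 2 E-boxes and no TC box. Among 32851 promoters of the same length, 72.3% held an E-box, 25.6% a TC box and 19% both. A match describes these letters only and is not evidence of binding. Zg16 is named without a window.

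**Figure D3:**
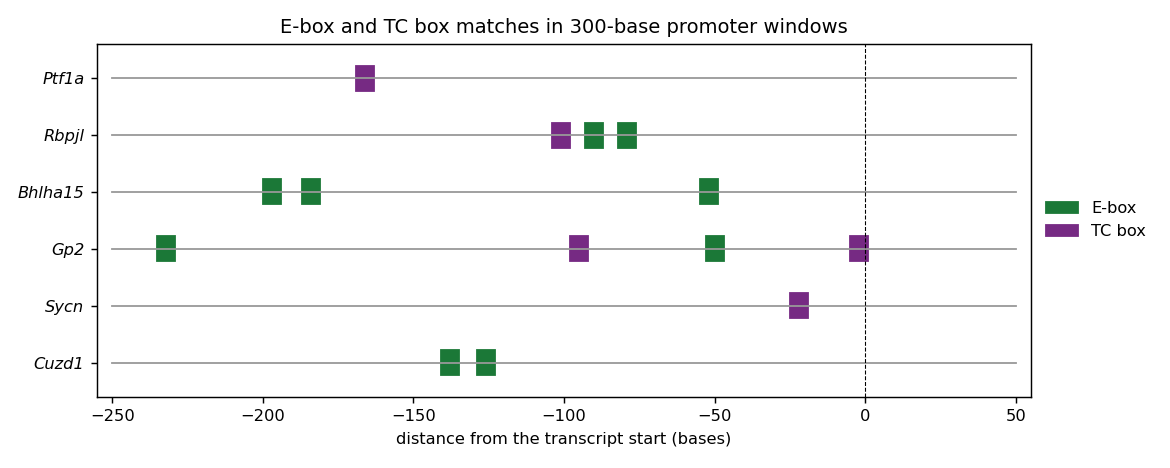
Positions of E-box and TC box matches in the promoter windows of 6 genes, as distance in bases from the transcript start (horizontal axis, dashed line at the start). Rbpjl and Gp2 are the 2 genes with both motifs, and Rbpjl has its 3 matches within -104 to -77.

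The 4 granule genes had 1 probe each, detected on all 12 arrays, so their falls could be measured on both sides. Gp2 (ILMN_2904435) had log2 levels of 7.41, 7.12 and 7.28 in SHPKO islets and 11.36, 11.28 and 11.30 in WT islets on western diet. On chow its levels were 7.48, 7.51 and 6.86 in SHPKO islets and 11.34, 11.35 and 11.06 in WT islets. The genotypes were far apart on both diets, the 2 diets overlapped within each genotype, and the third SHPKO array on chow was the lowest of the 12. Gp2 fell by 4.04 on the log2 scale on western diet (SE 0.16, 16.5-fold, adjusted p = 1.18e-09) and fell by 3.96 on chow (SE 0.16, 15.6-fold, adjusted p = 1.32e-09).

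Sycn (ILMN_1232533) had log2 levels of 10.14, 10.02 and 9.79 in SHPKO islets and 13.94, 13.91 and 13.64 in WT islets on western diet. On chow they were 9.29, 9.34 and 9.05 in SHPKO islets and 13.28, 13.36 and 13.13 in WT islets. None of the 4 groups overlapped with another, and within each genotype the western diet arrays were above the chow arrays. Sycn, which helps granules fuse efficiently in mice, fell by 3.85 on western diet (SE 0.12, 14.4-fold, adjusted p = 1.97e-10) and fell by 4.03 on chow (SE 0.12, 16.4-fold, adjusted p = 9.65e-11).

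Zg16 (ILMN_2728429) had log2 levels of 10.23, 10.12 and 9.96 in SHPKO islets and 13.64, 13.62 and 13.36 in WT islets on western diet. Chow arrays read 9.84, 9.86 and 9.13 in SHPKO islets and 13.91, 14.13 and 13.86 in WT islets. Here the diets went opposite ways without overlap: western diet arrays were above chow arrays in SHPKO and below them in WT islets. Neither diet difference passed the test (limma, adjusted p = 0.134 in SHPKO and 0.189 in WT islets). The third SHPKO array on chow was again the lowest of the 12. Zg16 fell by 3.44 on western diet (SE 0.18, 10.8-fold, adjusted p = 2.48e-08) and fell by 4.36 on chow (SE 0.18, 20.5-fold, adjusted p = 1.49e-09). Goblet cells also make Zg16. The goblet genes Muc2, Tff3, Fcgbp, Spink4 and Clca1 were not detected on any of the 12 arrays. Lyz1, a Paneth cell gene of the same list and its 1 tested member, was higher in SHPKO islets on western diet (0.93, adjusted p = 2.37e-05) and differed by 0.02 on chow. That list summed to 1924 to 2203 in SHPKO and 1062 to 1184 in WT islets on western diet. On chow it summed to 815 to 901 in SHPKO and 826 to 920 in WT islets. Of its 10 genes on the array, 8 were not detected on any array. Most of the sum was Lyz1 (mean log2 level 10.99 in SHPKO and 10.07 in WT islets on western diet), so it does not measure goblet genes. The part of goblet or Paneth cells in the Zg16 level was not tested.

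Cuzd1 (ILMN_2592718) had log2 levels of 6.04, 5.73 and 6.02 in SHPKO islets and 9.56, 9.27 and 9.20 in WT islets on western diet. On chow the arrays gave 6.02, 6.03 and 5.85 in SHPKO islets and 9.84, 9.93 and 9.97 in WT islets. Each SHPKO array was below each WT array, the SHPKO arrays overlapped between diets, and WT arrays on western diet were below those on chow. Cuzd1 fell by 3.42 on western diet (SE 0.12, 10.7-fold, adjusted p = 3.25e-10) and fell by 3.95 on chow (SE 0.12, 15.4-fold, adjusted p = 6.67e-11). With no background correction these differences were -2.52 and -3.03.

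The fall was set against that of the digestive enzymes, the cargo of the same granules. Of 26 listed enzymes, 21 were on the array and 20 were tested, and all 20 were lower in SHPKO islets on both diets. The median enzyme difference was -3.65 on western diet (quartiles -4.31 and -3.05) and -3.79 on chow (quartiles -4.32 and -3.35), beside 0.02 and 0.01 over all genes tested. Granule genes had a median of -3.64 on western diet and -4.00 on chow. In the order of the differences on chow, the largest falls were those of the trypsinogen gene Prss3 (-5.11), the phospholipase gene Pla2g1b (-4.72) and the elastase gene Cela3b (-4.70). Prss3 in SHPKO islets lay near the lowest detected signal of an array and was detected on 2 of 3 arrays on western diet and 3 of 3 on chow, so a larger fall could hardly have been measured. Zg16 stood sixth of 27, between the lipase-related Pnliprp2 (-4.43) and the carboxypeptidase gene Cpb1 (-4.28). Sycn, Gp2 and Cuzd1 stood together between the trypsinogen gene Prss2 (-4.04) and the carboxypeptidase gene Cpa1 (-3.95). Trypsinogen genes are close paralogs, and their probes may read each other's transcripts.

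Rbpjl and Ptf1a stood among the smallest differences, where a signal at the negative controls in SHPKO islets limits what can be measured. Rbpjl had Try5 (-3.10) and the chymotrypsin C gene Ctrc (-2.61) as neighbours on chow, and Ptf1a had the elastase gene Cela2a (-1.95) and the amylase gene Amy2a5 (-0.64). Ctrc too was not detected in SHPKO islets, and was at least 3.88-fold lower on chow. The probes of Cela2a and Amy2a5 reached 86.6% and 84.7% of the highest signal on an array. Similarly bright enzyme probes had larger falls on chow: Clps (95.5%, -3.69), Try10 (88.3%, -3.66) and Cela1 (81.9%, -3.43). The part of signal compression in the small differences of Cela2a and Amy2a5 was not tested. Bhlha15 was last of 27 on both diets.

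**Figure D4:**
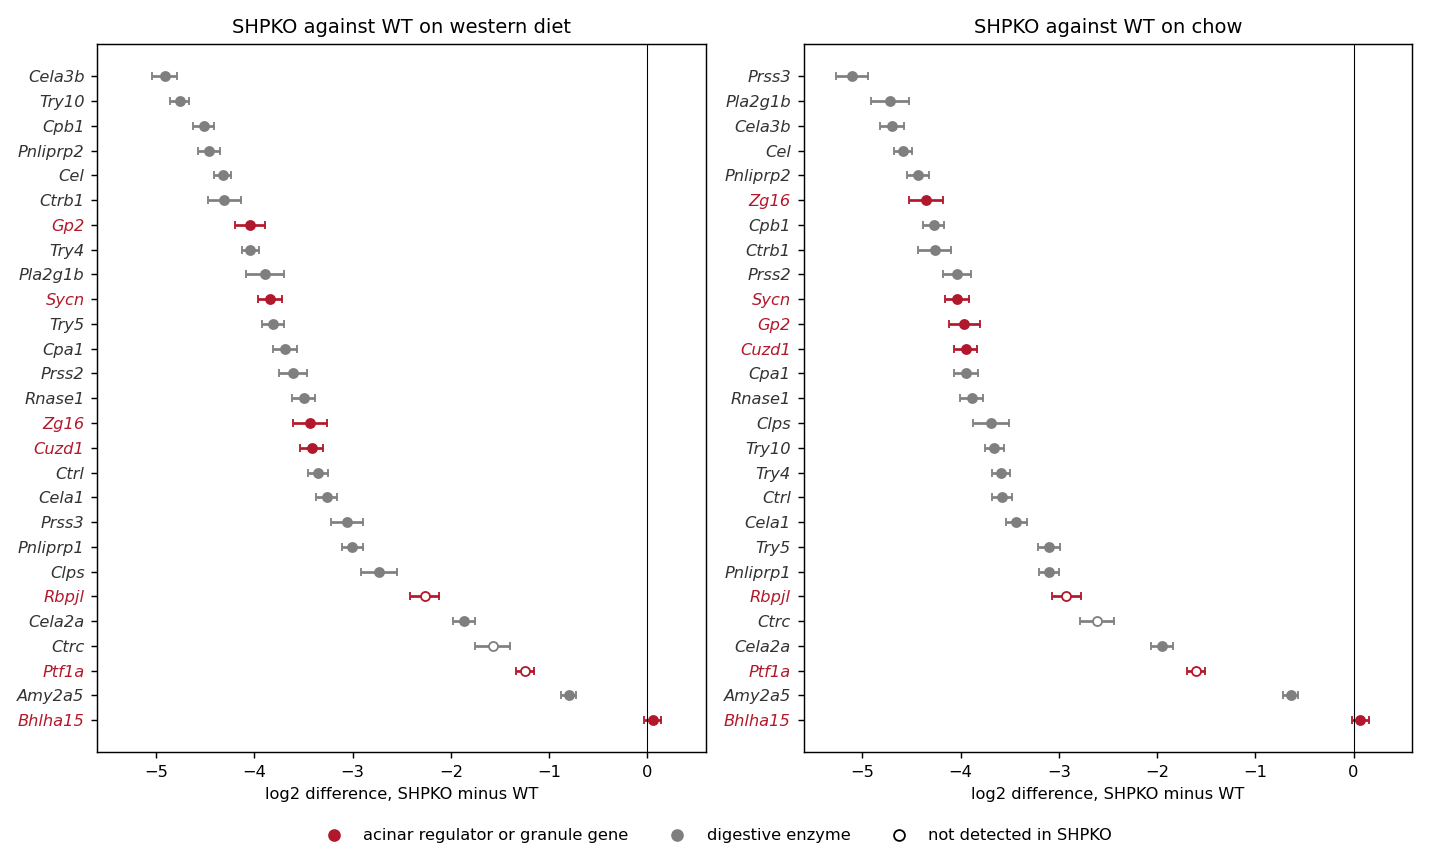
Log2 difference between SHPKO and WT islets (horizontal axis, ± SE of the fit over 12 arrays) for 7 acinar regulators and granule genes (red) and 20 digestive enzymes (grey), on western diet at the left and chow at the right. Open points were not detected in SHPKO islets. The granule genes lie inside the range of the enzymes, from -4.91 to -0.80 on western diet and -5.11 to -0.64 on chow, and Bhlha15 lies at 0.05 and 0.07.

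A second fit took each array's median log2 level of 18 enzymes detected on all arrays away from every gene. That median differed between SHPKO and WT islets by -4.37 on western diet and -3.64 on chow, since a different enzyme stands in the middle in each group. Against it, Bhlha15 was higher by 4.42 ± 0.08 on western diet (adjusted p = 1.30e-14) and by 3.71 ± 0.08 on chow (adjusted p = 1.24e-13). Nearly every gene on the array, 99.9% on each diet, differed from the enzymes in this fit, so passing it is not particular to Bhlha15. Ptf1a was 3.12 and 2.04 and Rbpjl 2.10 and 0.72 above the enzymes on western diet and chow. Their SHPKO signal was not detected, so a larger fall could not have been measured.

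The granule genes lay within 1 log2 unit of the enzyme median. Gp2 was 0.32 ± 0.13 above it on western diet (adjusted p = 0.0306) and 0.32 ± 0.13 below it on chow (-0.32, adjusted p = 0.0309). Sycn differed from it by 0.52 and -0.39, Zg16 by 0.93 and -0.71, and Cuzd1 by 0.95 and -0.31. On chow all 4 differences turned their sign with the choice of enzymes, and those of Gp2 and Cuzd1 also with that of background. On western diet that of Gp2 turned with the choice of enzymes, those of Gp2 and Sycn with the mean of the enzymes in place of the median, and those of Zg16 and Cuzd1 kept their sign in all 18 settings. With the median over 7 enzymes with dimmer probes, Gp2 was at -0.009 on western diet and 0.63 on chow and Cuzd1 at 0.64 on chow. No order between granule genes and enzymes is drawn from them.

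Genes for other steps of acinar secretion fell in part. Of 20 tested, 7 were lower in SHPKO islets on western diet and 8 on chow, with a median over the 20 of -0.18 and -0.14. The largest falls on western diet were those of Klk1 (-3.80), a tissue kallikrein, Dmbt1 (-3.50), a scavenger receptor protein of granule content, and Spink1 (-3.25), the trypsin inhibitor of acinar cells. On chow they were Dmbt1 (-4.20), Klk1 (-4.17) and Erp27 (-3.28), an endoplasmic reticulum protein. Pdia2 (-2.27 and -3.13), Aqp12 (-1.67 and -2.03) and Muc1 (-0.63 and -0.78) were also lower on both diets, and Rab26 (-0.60) on chow. Erp27 and Aqp12 were not detected in SHPKO islets on either diet, which puts Erp27 at least 6.06-fold and Aqp12 at least 1.78-fold lower on western diet and at least 7.24-fold and 2.71-fold lower on chow. Muc1 was not detected in SHPKO islets on western diet, where it was at least 1.25-fold lower. Rab3d, Vamp8, Snap23, Stx3 and Stxbp2, which serve granule docking and fusion, did not pass the test on either diet. Rab3d, a small GTPase on zymogen granules, differed by 0.23 ± 0.10 on western diet and -0.12 ± 0.10 on chow. Vamp8, the granule SNARE protein, differed by 0.22 ± 0.13 and -0.15 ± 0.13. Islet endocrine cells also express exocytosis genes. The receptors for cholecystokinin and secretin, Cckar and Sctr, were not detected on any array.

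Markers of other cells of an islet preparation were set beside the granule genes. Of 10 tested duct and centroacinar markers, 2 were lower on each diet: Tff2 (-3.59 on western diet and -4.36 on chow), a trefoil peptide, and the mucin gene Muc1, also counted above. Krt19, Cftr, Car2, Aqp5, Epcam and Cldn18 were not detected on any array. The summed level of the duct list was 4340 to 4761 in SHPKO and 6514 to 7861 in WT islets on western diet, and 4535 to 4607 in SHPKO and 7041 to 7342 in WT islets on chow. This sum includes Tff2, the gene whose levels tracked Sycn most closely (r = 0.992). The part of Tff2 in the lower sum was not tested, so the sum is not a measure of duct cells. Of 6 tested stellate and fibroblast markers, Dcn was higher in SHPKO islets on both diets (1.68 and 1.55). Over all 8875 genes, 281 passed in either direction on western diet and 187 on chow. The stellate and fibroblast list summed to 1757 to 1945 in SHPKO and 1314 to 1387 in WT islets on western diet. On chow it summed to 1495 to 1712 in SHPKO and 1135 to 1282 in WT islets. The part of duct, stellate and fibroblast cells in the fall of the granule genes was not tested.

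Differences between the diets were smaller than those between the genotypes for the 6 genes that fell. In SHPKO islets 1 of 7 genes passed the test between western diet and chow, Sycn, which was higher by 0.76 ± 0.12 (1.69-fold, adjusted p = 0.00211). Over all genes 2.2% passed and were higher in that comparison. The other 6 differed by -0.11 to 0.49. In WT islets 0 of 7 passed by limma, beside 2.73% of all genes. At an unadjusted p below 0.05 there were 5 of 7, beside 20.6% of all genes. Ptf1a (-0.39, adjusted p = 0.0271), Sycn (0.57, adjusted p = 0.0171) and Cuzd1 (-0.57, adjusted p = 0.0127) had an adjusted p below 0.05 and stayed under 1.5-fold. Rbpjl differed by -0.46 (adjusted p = 0.0943), Zg16 by -0.42 (adjusted p = 0.189), and Bhlha15 and Gp2 by -0.09 and 0.07. The comparisons of diet and of genotype share arrays. The share of all genes without overlap between the diets is not given, so the lack of overlap between diets noted for single genes is a description only.

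Among the enzymes, 9 of 20 were lower on western diet in WT islets, where 2.73% of all genes passed in either direction. In SHPKO islets 7 enzymes were lower and 2 higher, Clps (0.93), the cofactor of pancreatic lipase, and Prss2 (0.63). In that comparison 292 of 8875 genes passed in either direction, and 2.2% of all genes passed and were higher. The median enzyme differed by -0.07 in SHPKO and by -0.42 in WT islets.

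**Figure D5:**
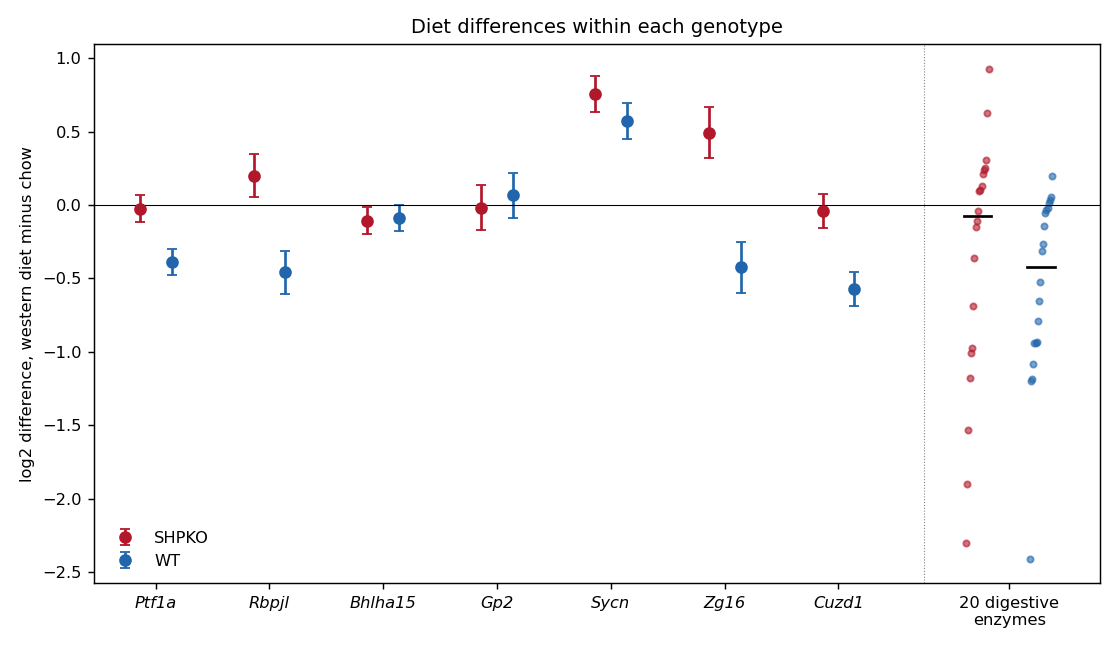
Log2 difference between western diet and chow (vertical axis, ± SE) in SHPKO islets (red) and WT islets (blue) for the 7 genes, with the 20 digestive enzymes as points and their medians as bars at the right. Sycn is above 0 in both genotypes (0.76 and 0.57), and Zg16 is above 0 in SHPKO (0.49) and below 0 in WT islets (-0.42).

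The genotype difference did not differ between diets past the threshold for any of the 7 genes. By limma 0 of 7 passed the interaction test, beside 2.07% of all genes, and 4 of 7 had an unadjusted p below 0.05, beside 12.7%. Zg16 came nearest, with a genotype difference smaller on western diet by 0.92 ± 0.25 (adjusted p = 0.0897). By adjusted p, Cuzd1 (0.53 ± 0.16, adjusted p = 0.153) and Rbpjl (0.66 ± 0.21, adjusted p = 0.165), whose SHPKO signal was not detected, followed. The Zg16 value passed the test with no background correction (adjusted p = 0.0363) and with an offset of 50 (adjusted p = 0.0457), and with the replicate number as a block (adjusted p = 0.0145).

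The genes whose levels tracked each of these genes most closely were found by Pearson correlation of log2 levels over the 12 arrays, which form 4 groups and share the genotype difference. For Gp2 these were Cpa1 (r = 0.998), Pnliprp1 (0.998) and Cela2a (0.997). Cuzd1 was closest to Klk1 (0.997), Ctrl (0.997) and Cela1 (0.997), and Zg16 to 2210010C04Rik (0.998), Pla2g1b (0.998) and Cpa1 (0.995). The nearest to Sycn were Tff2 (0.992), Hamp2 (0.991) and Cpa1 (0.990). Ptf1a stood closest to Cuzd1 (0.992), Dmbt1 (0.991) and Cela1 (0.987), and Rbpjl to Erp27 (0.992), Klk1b26 (0.992) and 2210010C04Rik (0.991). The nearest to Bhlha15 were Lefty1 (0.947), Agbl4 (0.916) and Cyth3 (0.907), none of them a listed enzyme. Between Bhlha15 and the other 6 genes the correlation was -0.39 to -0.24, against 0.94 to 0.99 among those 6.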

How the data were processed

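Total RNA of mouse islets was labelled with the Illumina TotalPrep kit and run on 12 beadchip arrays, per the labels' protocols. The deposited raw table holds a linear intensity per probe and array beside a detection p-value from BeadStudio, per the submitters' processing notes, in which no version is given. The other deposited table, used as an alternative, appears from its values to hold intensity after background subtraction and quantile normalization. Slide positions and a genome build are not given in the sources used here.

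The neqc function of limma (version 3.58.1, run in R 4.3.3) corrected and quantile-normalized the raw intensities with an offset of 16 and background from the detection p-values, and gave log2 levels. The 14756 probes with a detection p below 0.01 on each array of some group were kept, and the brightest kept probe stood for each of 8875 genes. A model with 4 group means was fitted (lmFit, eBayes, prior degrees of freedom 4.42), with Benjamini-Hochberg adjustment over all genes in each contrast. Summed levels of a list are on the linear scale after the offset is taken away. An "at least" fold sets the detected group's mean log2 level against the higher of the lowest detected signal and the probe's own value on each array of the other group.

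Gene names came from the platform annotation: 34885 probes had 1 name, 18 several and 10378 none. On data simulated for SHPKO against WT on chow, the test called 92 of 100 genes set to a 2-fold change, 37 of 100 set to 1.5-fold, and 3 with no change set. The members and lists were chosen with earlier results of these data known. The text names all 7 genes, the enzymes with the 3 largest and 3 smallest differences on chow or next to a member, up to 3 genes that passed per list, direction and contrast, and 3 most similar genes per member. Rab3d, Vamp8, Snap23, Stx3, Stxbp2, Pdia2, Aqp12, Muc1, Xbp1 and Gata6 were chosen after their values were seen. No label says what a replicate number shares. Deviations of same-numbered arrays correlated at 0.147 to 0.421 between SHPKO and WT islets on western diet, over 0.1 in 3 of 3 pairs and so read as paired there, where the replicate block changed no call of the 7 genes; in the other pairs of groups 1 or more of 3 correlations lay below 0.1 (11 of 18 over 0.1 in all). Array number limits the precision.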

Additional observations from a re-analysis of the deposited data

Results flagged for a closer look

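The genotype difference of 5 genes of the acinar lists, none of them among the 7 described, depended on the diet by the interaction test in limma (SHPKO minus WT on western diet, less the same on chow). Prss3 had an interaction of 2.05 (adjusted p = 0.000214), with levels of 5.27 in SHPKO and 8.32 in WT islets on western diet and 5.63 in SHPKO and 10.74 in WT islets on chow. The lowest detected signal of SHPKO arrays was 5.07 to 5.34, so its SHPKO level had little room to be lower on western diet while its WT level was lower by 2.41 (-2.41 on the log2 scale), and this interaction cannot be told apart from that limit. The trypsinogen genes Try10 and Try5 went the other way, at -1.10 (adjusted p = 0.000608) and -0.72 (-0.715, adjusted p = 0.0382). Their probes reached 88.3% and 49.4% of the highest signal on an array, and probes of trypsinogen paralogs may read each other's transcripts. The part of signal compression or of such reading in these 2 values was not tested. Pdia2, an acinar protein disulfide isomerase, was at 0.86 (adjusted p = 0.0431), with differences of -2.27 on western diet and -3.13 on chow. Rab26, a small GTPase of secretory granules, was at 0.70 (0.695, adjusted p = 0.0226), with differences of 0.09 on western diet and -0.60 on chow.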

How the results depend on the processing

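The count of 6 lower genes in SHPKO islets held under the alternatives run on both diets, except that 5 passed on western diet with no background correction, where Ptf1a was at -0.57, and 4 of the 5 genes left passed where detection on all 12 arrays was required. Over the single-gene differences, 823 values under alternatives gave 796 with the same direction and call, 2 that lost the call, 11 that gained it and 14 that changed sign, all in differences that did not pass. With the mean of all probes Bhlha15 was at -0.018 for genotype on chow and 0.083 for the interaction. With 1 array left out Bhlha15 ran over -0.009 to 0.126 for genotype on chow and -0.072 to 0.063 for the interaction. Gp2 ran over -0.228 to 0.094 for diet in SHPKO, -0.028 to 0.115 for diet in WT islets and -0.294 to 0.028 for the interaction, and Cuzd1 over -0.095 to 0.061 for diet in SHPKO islets. For diet in WT islets, 3 genes passed on adjusted p alone, and leaving out 1 array gave 0 to 1: Sycn without WT chow array 2 (0.62) or WT western diet array 3 (0.66), and Cuzd1 without WT chow array 1 (-0.60) or WT western diet array 1 (-0.68). For diet in SHPKO islets 0 passed at 2-fold. For the interaction 1 gene, Zg16, passed with no background correction (0.88), with an offset of 50 (0.90) and with the replicate number as a block (0.92, with 238 in place of 184 genes past the threshold), and leaving out 1 array gave 0 to 1, Rbpjl without SHPKO western diet array 1 (0.82, adjusted p = 0.0444). The replicate block changed no other call of the 7 genes, and 10 of 12 arrays correlated best with an array of their own number, a hint from the data and not from the design.

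Of 252 values set against the enzymes, 225 kept direction and call, 17 lost the call and 10 reversed; the cause was not tested. Reversed values were, with the 7 dimmer enzymes, Gp2 at -0.009 on western diet and, on chow, Gp2 at 0.63, Sycn at 0.55, Zg16 at 0.23 and Cuzd1 at 0.64. With the mean of the enzymes, an alternative chosen after seeing the data, Gp2 was at -0.44 and Sycn at -0.24 on western diet. With no background correction Gp2 was at 0.066 and Cuzd1 at 0.54 on chow, and with an offset of 50 Cuzd1 was at 0.23. Leaving out 1 array gave 4 to 7 genes that differed from the enzymes on chow, 4 without SHPKO western diet array 3, where the median ran over 19 enzymes. Bhlha15 stayed above the enzymes by 3.63 to 4.66 on both diets in all 18 settings. Over all genes, counts past the threshold moved from 281 to between 126 and 441 for genotype on western diet, from 187 to 84 and 381 on chow, from 242 to 59 and 515 for diet in WT, from 292 to 116 and 533 for diet in SHPKO islets, and from 184 to 80 and 308 for the interaction, with fold minimum, filter, background or probes. Signal near the negative controls limits Ptf1a and Rbpjl.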
